A study of Rattus norvegicus with 8 samples.

Results

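Glucocorticoid-induced leucine zipper (GILZ), the product of Tsc22d3, and its 3 relatives encoded by Tsc22d1, Tsc22d2 and Tsc22d4 make up the TSC22 domain family. The family was followed in primary rat thymocytes on whole genome expression arrays. The 4 genes were first sought by the gene name that the array gives each probe, with the suffix for predicted genes removed, which found 2 of 41012 probes, both for Tsc22d3. The other members are on the array under older names. Once the names were updated through the RefSeq table of rat genes, 8 probes were found, 2 for each of the 4 genes, among 17119 named genes in all. Tsc22d1 is listed as LOC498545 and Tgfb1i4, Tsc22d2 as LOC499624, and Tsc22d4 as MGC125073.

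The thymocytes, the immature T cells of the thymus, came from the pooled thymi of 3 adrenalectomized male Sprague-Dawley rats per preparation, so that the donors of both groups lacked adrenal hormone. They were cultured for 6 hours without hormone (Control, 4 arrays) or with dexamethasone, a synthetic glucocorticoid, at 100 nM (Dex, 4 arrays). The labels number the replicates 1 to 4 in each group while the study's design text states 3 biological replicates, and all 8 arrays were used. Each array reads 1 color and holds probes of 60 bases. Values below are log2 intensities after quantile normalization, which gives every array the same distribution, and a log2 fold change is the Dex mean minus the Control mean.

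The proteins of this family share a short conserved region, the TSC box, that is followed by a leucine zipper through which they pair with themselves and with each other. They lack a classical DNA-binding domain and act by binding other proteins. GILZ is known as a direct target of the glucocorticoid receptor in lymphocytes, where it binds NF-κB and AP-1. Tsc22d1, first described as a gene induced by TGF-β, together with Tsc22d2 and Tsc22d4, is known to associate with the pseudokinase NRBP1 and with WNK kinases, which control ion transport and cell volume.

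The sequences of 3 probes are shown, those of Tsc22d3 and Tsc22d2 because their single open frame holds the spacing of a leucine zipper, and that of Tsc22d1 because it spans a gap in the genome. Capitals mark codons that read leucine and lie 7 codons from another such codon in the open frame. Positions are those of rat build rn3, as the scanner output gives them.
Tsc22d3 probe A_44_P346807, chrX:128411310-128411369, minus strand: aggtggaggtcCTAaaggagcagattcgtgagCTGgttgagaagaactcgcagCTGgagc
Tsc22d2 probe A_44_P361091, chr2:147747400-147747459, plus strand: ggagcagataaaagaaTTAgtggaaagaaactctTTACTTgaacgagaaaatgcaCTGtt
Tsc22d1 probe A_44_P365516, chr15:57515642-57516107, plus strand: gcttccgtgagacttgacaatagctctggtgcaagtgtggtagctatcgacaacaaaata

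The Tsc22d3 and Tsc22d2 probes shown, called zipper probes below, were the most alike of all pairs of probes from different members, with 27 identical bases in an ungapped overlap of 44, or 61.4%. The Tsc22d1 probe carries no such codon pair and spans 466 genomic bases, so that a gap of 406 bases lies within its 60 bases. The other Tsc22d3 probe, A_42_P822638, lies at chrX:128409997-128410056 on the same strand. The other Tsc22d1 probe is A_43_P14977 at chr15:57518305-57518364, and the other Tsc22d2 probe is A_44_P221650 at chr2:147748657-147748716. The Tsc22d4 probes are A_44_P189646 at chr12:19815535-19815594 and A_44_P777424 at chr12:19823979-19824038. The latter also holds 2 leucine codons at this spacing, and it is not shown because 2 of its frames are open. No annotation of exons was used for build rn3, and which transcripts each probe reads is therefore not given.

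The scanner software flagged 24911 to 34476 probes of each array as well above background, and no spot was saturated. Dex 1, Dex 2 and Control 1 had the fewest, at 26474, 24911 and 28666. There were 3 slides, with Control 1 and Dex 3 on the first, Control 2, 3 and 4 on the second, and Dex 1, 2 and 4 on the third, so that slide and treatment can be separated only by the first slide. Of 14 thymocyte marker genes on the array, all were well above background on all arrays, with 3 higher and 11 lower in Dex. The mean log2 intensity of the 13 with a value on every array was 12.99 to 13.16 in Control and 12.58 to 12.87 in Dex. Markers of other cell types were detected as well, and well above background on all arrays were 8 of 9 macrophage, 7 of 10 stromal, 3 of 5 B cell and 5 of 5 erythroid markers. The 9 macrophage markers averaged 5.97 to 6.29 in Control and 6.37 to 6.70 in Dex, and the 10 stromal markers averaged 6.13 to 6.38 and 6.39 to 6.90. On every Dex array the thymocyte mean was thus lower, and the macrophage and stromal means were higher, than on every Control array. The macrophage markers did not move as 1, with 5 higher and 4 lower in Dex and a median log2 fold change of 0.12. Of the stromal markers 9 were higher and 1 was lower, with a median of 0.43. The 5 B cell markers averaged 4.57 to 5.17 and 4.41 to 5.56, and the 5 erythroid markers averaged 5.84 to 7.11 and 6.13 to 7.57. Of the stromal markers only the endothelial gene Pecam1 passed the test (log2 fold change 1.36, limma adjusted p = 0.0208), and none of the macrophage, B cell, erythroid or thymocyte markers did. Other markers of macrophages and thymocytes had non-overlapping groups and were picked out once their values were known. Among macrophage genes they were Mrc1 and C1qc at 2.12 and 0.97 (limma adjusted p = 0.0870 and 0.327). The macrophage genes Cd14, Cd163, Adgre1 and Cd68 were lower in Dex, at -0.77, -0.24, -0.15 and -0.12, with overlapping groups. Thymocyte genes with non-overlapping groups included Bcl11b, Lck and Ptcra at -0.87, -0.68 and -0.61 (limma adjusted p = 0.0546, 0.112 and 0.154). The thymocyte gene Cd8b was at 0.52 (limma adjusted p = 0.326), in a fit that lacks Control 1, where its value was missing. Their part in the results below was not tested. In such mixed cultures, fewer cells of a type and less RNA per cell cannot be told apart.

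Dexamethasone raised Tsc22d3 on both of its probes, whereas no probe of the other 3 genes passed the test. On the brighter Tsc22d3 probe, A_42_P822638, Control arrays 1 to 4 read 11.09, 10.80, 11.30 and 11.26, and Dex arrays 1 to 4 read 14.41, 14.84, 14.84 and 14.74. The lowest Dex array lay far above the highest Control array. The log2 fold change was 3.59 ± 0.18 (SE, n = 4 per group, 95% interval 3.17 to 4.01), a 12.1-fold rise (limma, two-sided, adjusted p = 0.000153 over all probes). By size of the rise this probe ranked 13 among all 41012.

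The zipper probe of Tsc22d3, A_44_P346807, read 6.92, 6.70, 6.90 and 6.98 in Control, and 10.21, 10.41, 10.50 and 10.53 in Dex. Its rise of 3.54 ± 0.15 on the log2 scale (SE, n = 4 per group, 95% interval 3.19 to 3.88), or 11.6-fold, had the smallest p of all probes (limma, adjusted p = 0.000134). No array of either group overlapped the other, and the SD was 0.12 within Control and 0.15 within Dex. Over all probes the median SD was 0.28 within Control and 0.50 within Dex, so that both groups were tighter for this probe than for a typical one. With normexp background correction, which adds an offset of 50 units, the rise was 2.68 on the zipper probe and 3.53 on the brighter probe (limma adjusted p = 1.93e-05 and 3.04e-05).

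The rise was visible before any normalization between arrays. The scanner intensity of A_42_P822638 was 2626, 2066, 2055 and 2872 units in Control and 33332, 48043, 16729 and 14916 units in Dex. Dex 3 and Dex 4 were the dimmer of the treated arrays as a whole, with a 75th percentile of 266 and 264 units against 425 and 401 for Dex 1 and Dex 2, and after normalization the 4 Dex values of this probe lay between 14.41 and 14.84. On the zipper probe the intensities were 133, 120, 111 and 151 units in Control and 1632, 1883, 931 and 913 units in Dex.

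**Figure D1:**
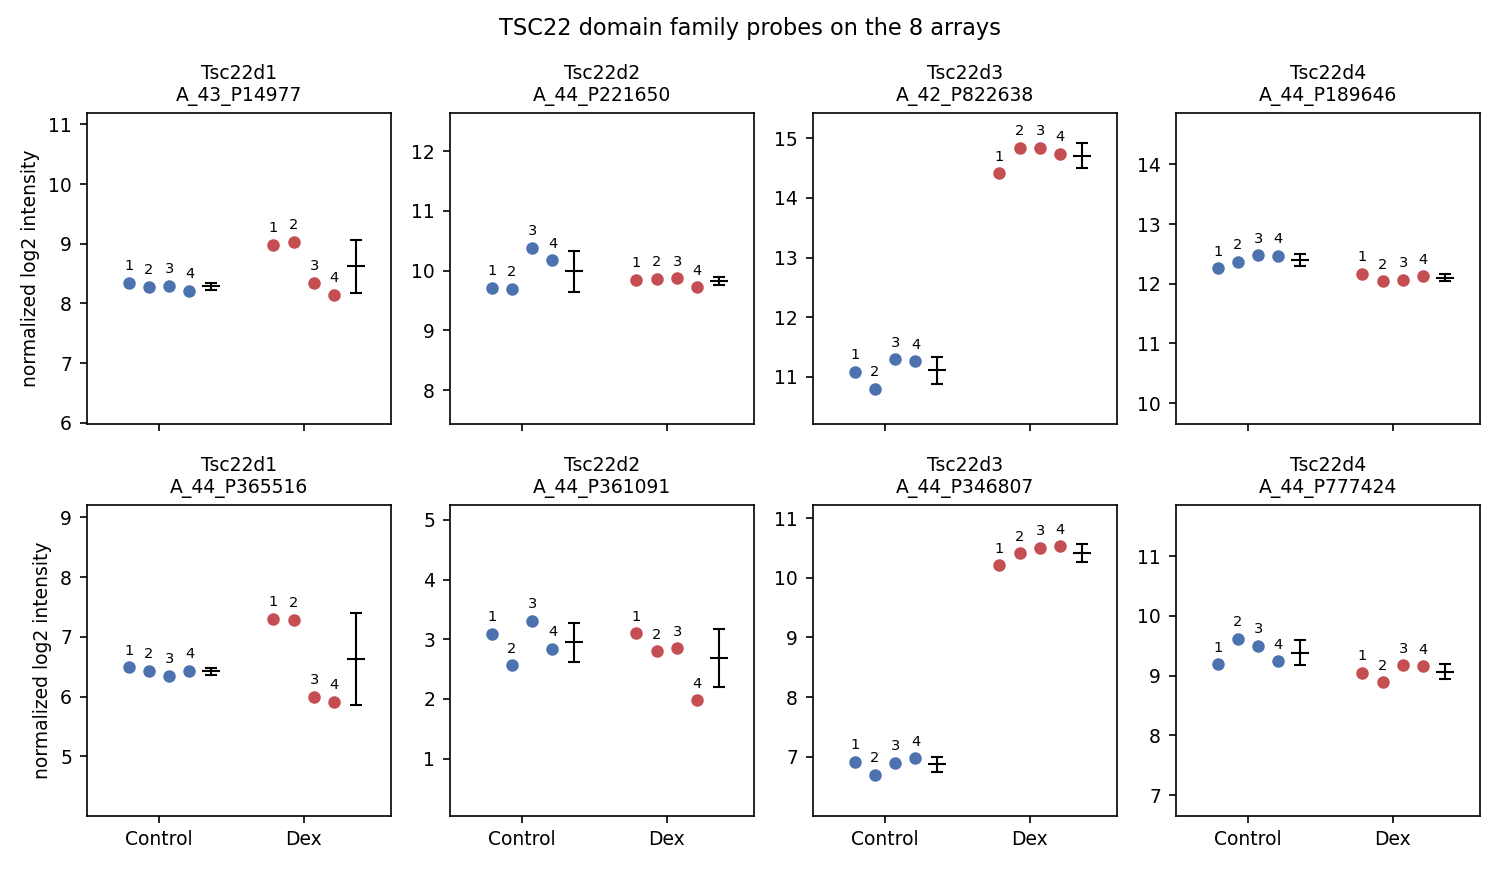
Normalized log2 intensity (vertical axis, the same span of log2 units in every panel) of each TSC22 family probe on the 4 Control and 4 Dex arrays, with the replicate number above each point and the group mean ± SD in black. Both Tsc22d3 probes separate the groups widely, Tsc22d1 is high on Dex 1 and Dex 2 alone, and Tsc22d4 lies slightly lower on every Dex array.

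The slides bear on how firmly this can be stated. Within the slide that held both groups, Dex 3 exceeded Control 1 by 3.75 on A_42_P822638 and by 3.58 on the zipper probe, as large as the overall changes. With the slide as a fixed block, where only that pair of arrays informs the treatment, the estimates were these same values and the limma adjusted p was 0.124 and 0.108. Under that block 1 of 41012 probes passed at all.

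The RefSeq table of promoters (build GRCr8) lists 3 starts for Tsc22d3, and which of them the probes read was not determined. The 250 bases before the start that lies farthest downstream are shown because a forkhead site and a TATA box were found in them, since forkhead factors of the FoxO group are known regulators of GILZ. Capitals mark the forkhead letters GTAAACA, here on the opposite strand at positions -162 to -156 from the start, and TATATAA at -46 to -40.
Tsc22d3 promoter, chrX:109010035-109010284, minus strand: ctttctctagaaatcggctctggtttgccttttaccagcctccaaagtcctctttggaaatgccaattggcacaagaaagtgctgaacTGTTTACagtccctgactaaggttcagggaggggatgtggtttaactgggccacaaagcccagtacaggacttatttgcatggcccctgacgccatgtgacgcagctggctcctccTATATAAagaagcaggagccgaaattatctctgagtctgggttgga

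In 33469 windows of all genes, both strands of the 250 bases before the start were searched. Of these windows 3.21% held the forkhead letters and 3.42% held TATATAA. The 50 bases after each start were not searched. The full glucocorticoid response element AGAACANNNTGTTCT was in 0.012% of windows and the short site AGAACA in 17.5%, and neither was in a window of Tsc22d1, Tsc22d2 or Tsc22d3. Tsc22d4 has no window in the table and was not searched. The other starts of Tsc22d3, both starts of Tsc22d1 and the start of Tsc22d2 held none of these motifs. These matches describe letters in a window and are not evidence of binding. Foxo3, the FoxO factor best known from this promoter, read 6.71, 6.92, 6.57 and 6.60 in Control and 7.23, 7.33, 6.62 and 6.58 in Dex. Its log2 fold change of 0.24 did not pass (limma, adjusted p = 0.769), and it was -0.09 within the shared slide.

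Tsc22d1 did not pass the test on either probe, and its Dex arrays fell apart by replicate. A_43_P14977 read 8.35, 8.28, 8.30 and 8.21 in Control and 8.98, 9.03, 8.35 and 8.15 in Dex, a log2 fold change of 0.34 (95% interval -0.19 to 0.87, limma adjusted p = 0.685). The probe A_44_P365516, which spans the gap, read 6.49, 6.43, 6.35 and 6.43 in Control and 7.30, 7.29, 6.00 and 5.91 in Dex, a log2 fold change of 0.20 (95% interval -0.62 to 1.02, adjusted p = 0.890). On both probes Dex 1 and Dex 2 lay above every Control array, Dex 4 lay below every one, and Dex 3 lay below every one on the second probe only. The SD was 0.06 within Control on both probes and 0.44 and 0.77 within Dex. Dex 1 and Dex 2 were also the arrays with the fewest probes above background, and the part of this in the result was not tested. Within the shared slide the change was 0.00 and -0.49. Without the 3 arrays with the fewest probes above background, a choice made after seeing the data, it was -0.01 and -0.45 (limma adjusted p = 0.960 and 0.0866).

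**Figure D2:**
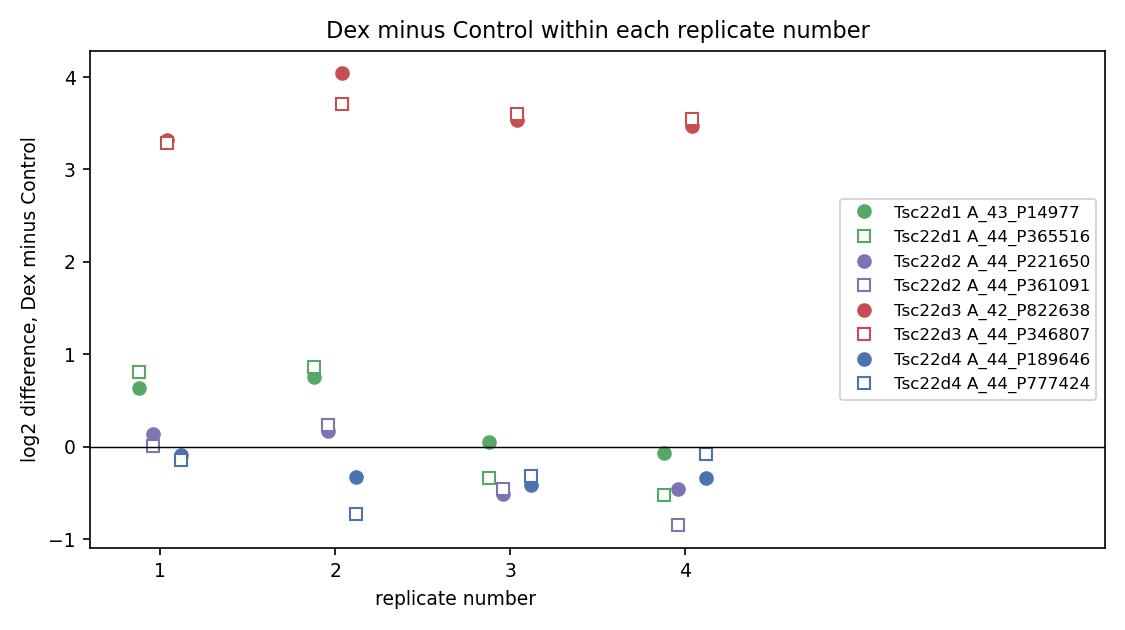
Dex minus Control within each replicate number (horizontal axis) on the log2 scale (vertical axis) for all 8 probes, filled circles for the brighter and open squares for the dimmer probe of a gene. Tsc22d3 lies between 3.29 and 4.04 in all replicates, and Tsc22d1 lies between 0.63 and 0.86 in replicates 1 and 2 and between -0.52 and 0.05 in replicates 3 and 4.

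Taken by replicate number, the Tsc22d3 difference was 3.32, 4.04, 3.54 and 3.47 on the brighter probe and 3.29, 3.71, 3.60 and 3.55 on the zipper probe. The corresponding differences of Tsc22d1 were 0.63, 0.75, 0.05 and -0.07 on A_43_P14977, and 0.81, 0.86, -0.34 and -0.52 on A_44_P365516. On both probes Tsc22d1 was thus higher in Dex by 0.63 or more in replicates 1 and 2, and by at most 0.05 in replicates 3 and 4.

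Tsc22d2 did not pass the test. Its brighter probe, A_44_P221650, read 9.71, 9.70, 10.38 and 10.17 in Control and 9.85, 9.86, 9.87 and 9.72 in Dex, a log2 fold change of -0.16 (95% interval -0.61 to 0.29, limma adjusted p = 0.826). Control 3 and Control 4 were higher than every Dex array, and Control 1 and Control 2 were lower than every Dex array, if only just so for Dex 4. Within the shared slide the difference was 0.16, of the opposite sign, and without Control 3 the log2 fold change was -0.03. The zipper probe A_44_P361091 was well above background on 3 Control arrays and 1 Dex array, at 3.09, 2.56, 3.31 and 2.84 against 3.10, 2.80, 2.85 and 1.98. Its log2 fold change of -0.27 (limma adjusted p = 0.799) rests on signal near background and was -0.03 without Dex 4.

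Tsc22d4, known in liver and muscle as a regulator of lipid and glucose metabolism, was slightly lower on every Dex array than on every Control array. A_44_P189646 read 12.26, 12.37, 12.48 and 12.47 in Control and 12.17, 12.04, 12.07 and 12.13 in Dex, and A_44_P777424 read 9.19, 9.62, 9.50 and 9.24 in Control and 9.05, 8.89, 9.17 and 9.16 in Dex. The log2 fold changes of -0.29 (95% interval -0.60 to 0.02) and -0.32 (-0.70 to 0.06) did not pass (limma, adjusted p = 0.512 and 0.566). Within the shared slide the differences were -0.18 and -0.02. The study's methods rank probes by a signal to noise statistic, in which the difference of the means is divided by the summed SDs of both groups, at a nominal p of 0.01 and a fold change of 1.2. That statistic called A_44_P189646 (one-tailed permutation p = 0.00184, from the 70 assignments of the 8 arrays pooled over probes) and did not call A_44_P777424 (permutation p = 0.0235). The 2 probes therefore shared a direction and a size, and the call for Tsc22d4 depended on the statistic.

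**Figure D3:**
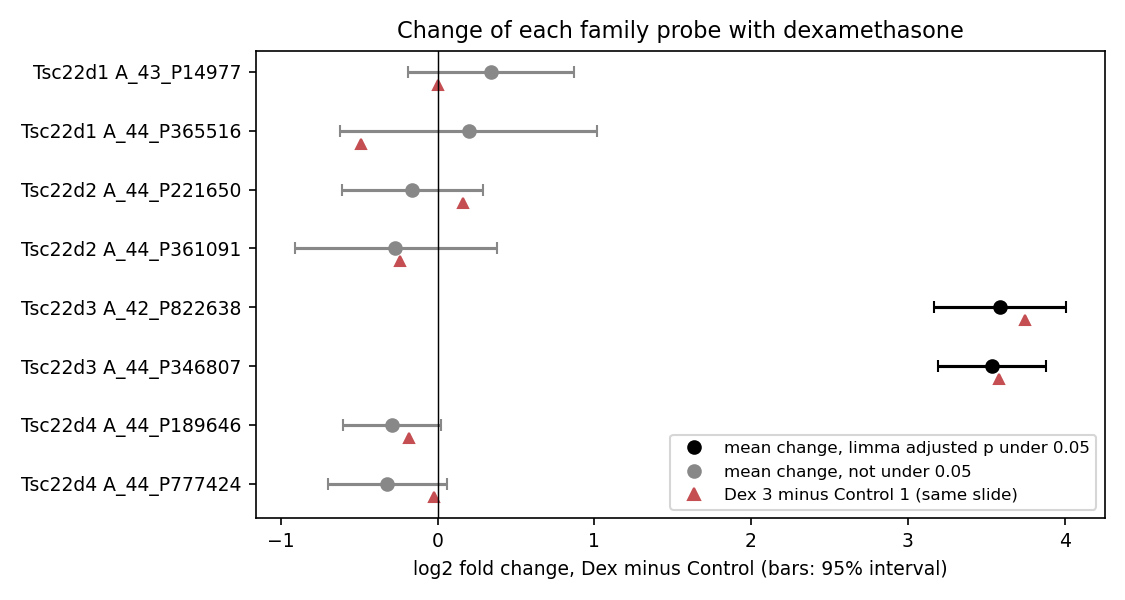
Log2 fold change of each probe, Dex minus Control (horizontal axis), with its 95% interval from limma, black where the adjusted p is under 0.05 and grey where it is not. Red triangles give Dex 3 minus Control 1, the arrays that shared a slide, which lie at 3.75 and 3.58 for Tsc22d3 and between -0.49 and 0.16 for the other genes.

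Counted over the family, 2 of 8 probes passed limma, both higher and both for Tsc22d3. Of all 41012 probes, 319 passed, or 0.778%, and 231 passed as higher in Dex, or 0.563%. The groups did not overlap for 4 of the 8 probes, the Tsc22d3 probes with Dex higher and the Tsc22d4 probes with Dex lower, against 9.11% of all probes. The signal to noise statistic called 3 of the 8 probes against 6.79% of all probes. The median log2 fold change of all probes was 0.00.

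Whether the members differed from each other in their change was tested directly, on the difference between the brightest probes of a pair of genes on each array, with an exact two-sided permutation test over the 70 assignments of arrays to groups. With 4 arrays per group this exact test cannot go below p = 0.0286. The change of Tsc22d3 exceeded that of Tsc22d1 by 3.25 and that of Tsc22d2 by 3.76 on the log2 scale, and the change of Tsc22d4 lay below that of Tsc22d3 by 3.88 (difference -3.88). Each of these 3 differences separated all Dex from all Control arrays and had the smallest p the test can give (exact p = 0.0286, Benjamini-Hochberg adjusted p = 0.0571 over the 6 pairs). After adjustment they therefore did not pass 0.05, although the intervals of Tsc22d3 and of the other genes lie far apart. Taken within replicate numbers, all 4 pairs showed the direction of each of these 3 differences, and an exact two-sided test over the 16 sign flips gave p = 0.125, the smallest it can give (adjusted p = 0.150). The differences of Tsc22d2 and Tsc22d4 from Tsc22d1, given below, reached the same outcome, so it is not particular to Tsc22d3.

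Among the other 3 genes the differences were smaller, and the settings under which some of them had an adjusted p under 0.05 are given below. The change of Tsc22d4 minus that of Tsc22d1 was -0.63 (exact permutation p = 0.0571, adjusted p = 0.0857), that of Tsc22d2 minus Tsc22d1 was -0.51 (p = 0.171, adjusted p = 0.206), and that of Tsc22d4 minus Tsc22d2 was -0.13 (p = 0.371, adjusted p = 0.371). These tests ignore the replicate pairs. By replicate number, both differences from Tsc22d1 were negative in all 4 pairs (exact sign-flip test, p = 0.125 for each, the smallest it can give). Tsc22d4 minus Tsc22d2 was negative in 2 pairs and positive in 2 (exact sign-flip test, p = 0.5). The 2 probes of a gene differed in their change by 0.03 to 0.14. None of these 4 differences passed (exact permutation test, adjusted p = 0.83 for each), a comparison that was added after the values were seen. With normexp background correction the Tsc22d3 probes differed by 0.85 (exact permutation p = 0.0286, adjusted p = 0.114), and the probes of the other genes by -0.18 to 0.12.

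Some array probes lie beside family probes on the opposite strand and are no members. AI029054, an expressed sequence tag at chrX:128409913-128409972, lies next to the brighter Tsc22d3 probe. It read 6.92, 6.81, 7.32 and 7.14 in Control and 8.45, 8.42, 8.57 and 9.02 in Dex, which is 1.57 higher on the log2 scale (limma adjusted p = 0.0139). With the replicate number as a block it did not pass (limma adjusted p = 0.0753), nor did it without Control 1, Control 2 or Control 4 (adjusted p = 0.0625, 0.0688 and 0.0659). AW140669, at chr2:147748652-147748711, overlaps the brighter Tsc22d2 probe on the opposite strand and differed by -0.60 on the log2 scale without passing (limma adjusted p = 0.476). Which transcripts these tags read is not given.

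GILZ works through other proteins, and a list of 28 genes that it is known to bind or regulate was examined. The array held 27 of them, with 13 higher and 14 lower in Dex. Their median log2 fold change was -0.03, against 0.00 for all probes. The median was 0.01 with normexp background correction and -0.11 after scaling to the 75th percentile. A single gene passed, 1 of 27 against 0.778% of all probes. It was Bcl2l1, which encodes the survival protein Bcl-xL and fell by 1.04 on the log2 scale, from 12.84 ± 0.11 to 11.80 ± 0.14 (SD, n = 4, limma adjusted p = 0.0232). Within the shared slide the difference was -1.09. The call did not hold with the replicate number as a block (limma adjusted p = 0.148), after scaling to the 75th percentile (0.304) or when any 1 array was left out (0.0555 to 0.112).

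Several binding partners were detected and did not pass, and their values are given here although they fall outside the rule by which genes were named. The NF-κB subunit gene Rela was at 0.09 and Nfkb1 at 0.40 (limma adjusted p = 0.863 and 0.494). The AP-1 genes Fos and Jun had log2 fold changes of 1.26 and -1.17 (limma adjusted p = 0.0955 and 0.212), with non-overlapping groups in both. Sgk1, a kinase gene often induced by glucocorticoids in other tissues, was at -1.32 (limma adjusted p = 0.0503), with all Dex arrays below all Control arrays. The forkhead genes Foxo1 and Foxo4 varied between replicates more than between groups. Foxo4 read 8.72, 8.97, 9.73 and 9.30 in Control and 8.04, 7.48, 10.62 and 10.82 in Dex, so that replicates 3 and 4 were high in both groups.

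The NRBP and WNK list holds 18 genes known to act with Tsc22d1, Tsc22d2 and Tsc22d4, and the array held all of them, with 6 higher and 12 lower in Dex. Their median log2 fold change was -0.23, and it was -0.04 with normexp background correction. None passed limma, while 4 of 18 were called by the signal to noise statistic, against 6.79% of all probes. In limma 3 genes had an unadjusted p under 0.05, against 10.6% of all probes, and they were chosen for mention once their values were known. They were Wnk1, a kinase that senses chloride, Oxsr1, a kinase that WNK kinases activate, and Slc12a7, a potassium chloride cotransporter. Their log2 fold changes were 0.66, -0.43 and -0.94 (limma adjusted p = 0.248, 0.334 and 0.0616). Wnk2, Wnk3 and Slc12a3 were not well above background on any array.

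Other known glucocorticoid targets gave the scale for the Tsc22d3 rise. Of 15 such genes, 14 were higher in Dex and 1 was lower. Their median log2 fold change was 0.81, and 7 passed as higher against 0.563% of all probes. The median was 1.48 with dim probes left out and 1.14 with slide as a fixed block. Dusp1, a phosphatase that inactivates MAP kinases, rose by 3.05, Ddit4, an inhibitor of mTORC1 signaling, by 3.73, and Klf9, a transcription factor, by 1.98 (limma adjusted p = 0.000927, 0.000153 and 0.00342). Fkbp5, a chaperone partner of the glucocorticoid receptor, rose by 1.73 (limma adjusted p = 0.00133). Nfkbia, which encodes the NF-κB inhibitor IκBα, rose by 1.41, Errfi1, an inhibitor of EGF receptor signaling, by 1.56, and the interleukin receptor gene Il7r by 1.62 (limma adjusted p = 0.00643, 0.00851 and 0.0410). By these estimates Tsc22d3, at 3.59 and 3.54, lay near Ddit4, above Dusp1 and above the other 5. The order was not tested, and the 95% interval of Dusp1 (2.55 to 3.54) overlapped those of both Tsc22d3 probes. Within the shared slide Dusp1 and Ddit4 each differed by 3.55, against 3.75 and 3.58 for the Tsc22d3 probes.

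Of these calls, 3 did not hold with the replicate number as a block, namely Nfkbia, Errfi1 and Il7r (limma adjusted p = 0.0673, 0.103 and 0.160). The log2 rise of Il7r was 0.75 with normexp background correction. Il7r passed when Dex 3 was left out (0.0462) and did not pass without any 1 of the other 7 arrays (0.0570 to 0.172), and Errfi1 did not pass without Control 4 (0.0504). After scaling to the 75th percentile, Fkbp5, Klf9, Nfkbia and Errfi1 did not pass (0.0528, 0.0657, 0.0989 and 0.0954). The glucocorticoid receptor gene Nr3c1, whose product dexamethasone binds, was at 0.81 with all Dex arrays above all Control arrays, and it did not pass (limma adjusted p = 0.0951). It passed with normexp background correction (adjusted p = 0.0176) and when dim probes were left out (0.0438), and the signal to noise statistic called it.

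**Figure D4:**
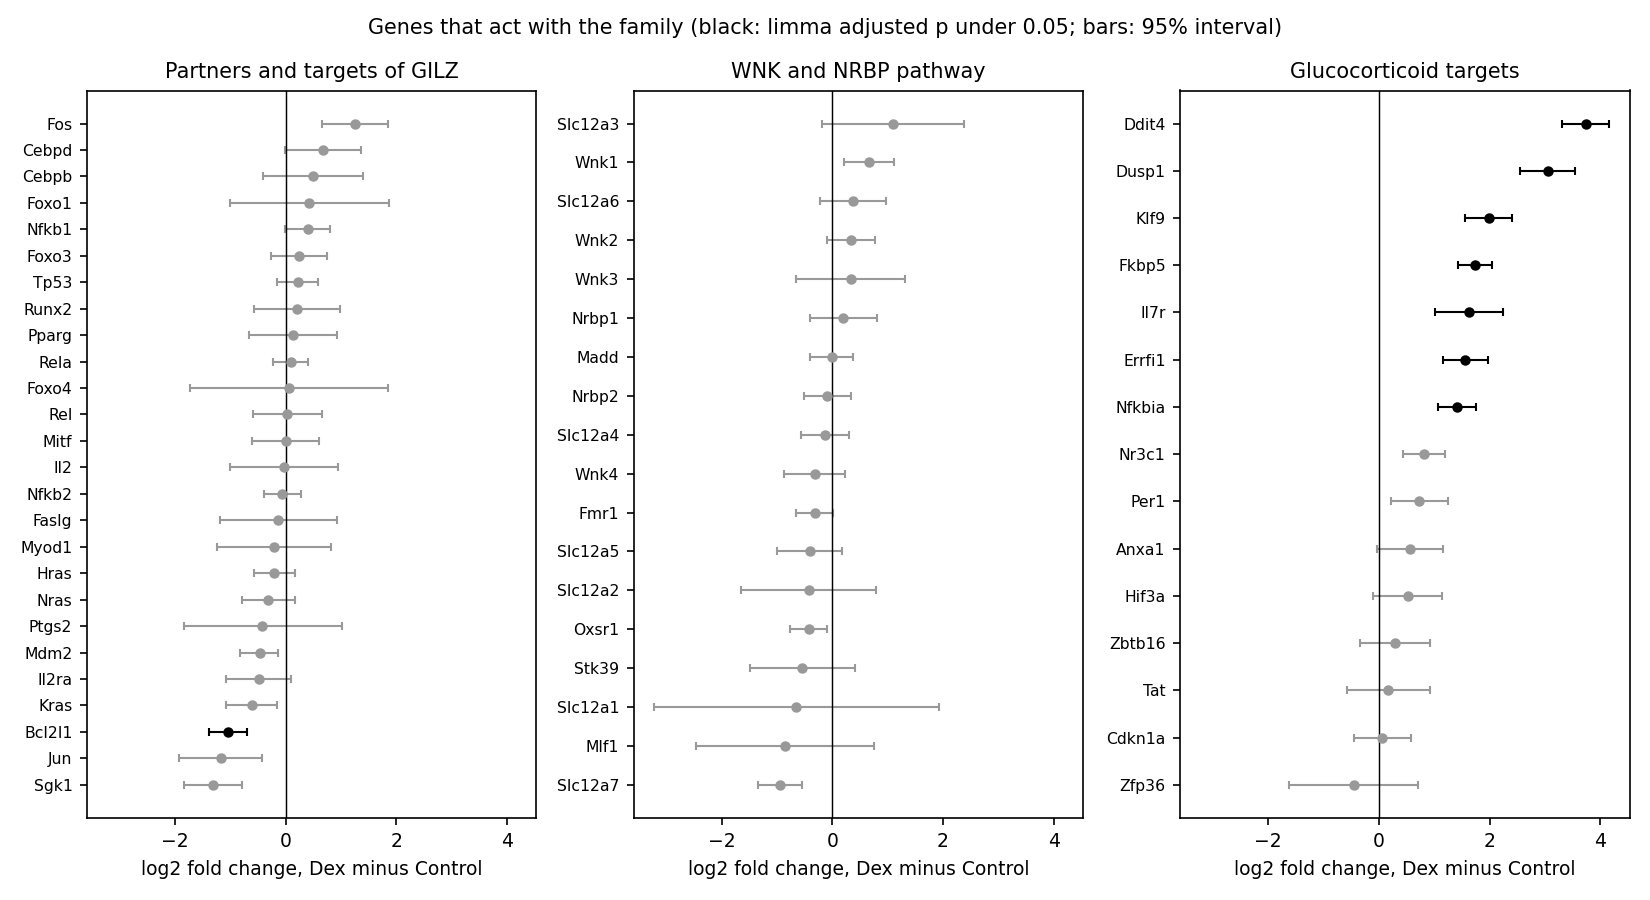
Log2 fold change, Dex minus Control (horizontal axis), with 95% intervals from limma for 26 of the 27 GILZ partner genes, 18 NRBP and WNK genes and 15 glucocorticoid targets, 1 probe per gene and sorted by value within each panel. Black marks an adjusted p under 0.05, which 1, 0 and 7 genes of the lists reached.

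The genes whose values followed the brightest Tsc22d3 probe most closely over the 8 arrays were sought among 14658 probes that have a gene symbol and were well above background on all arrays. The highest were Ptpn22 (Pearson r = 0.999), Sesn1 (0.996), Wdr62 (0.995), Mlana (0.993) and Itgae (0.993). The 8 points form a Control and a Dex cluster and share the normalization, so that r here mostly measures the separation of the groups, and no test was made. The sizes of their differences were far apart. Ptpn22, a phosphatase gene that restrains T cell receptor signaling, had a difference of 0.64 and did not pass limma (adjusted p = 0.0836). Its arrays stood at 10.83, 10.77, 10.86 and 10.89 in Control and 11.43, 11.49, 11.50 and 11.49 in Dex.

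Sesn1, a stress-response gene, rose by 1.28 and Wdr62, which encodes a centrosome and spindle protein, rose by 1.58 (limma adjusted p = 0.00543 and 0.00394). Itgae, which encodes the integrin CD103 found on thymocytes and on T cells of epithelia, rose by 4.02, or 16.2-fold (limma adjusted p = 0.000216). Mlana, a gene best known from melanocytes, had the largest rise of all 41012 probes at 4.89, or 29.6-fold, from 6.62, 6.04, 6.60 and 7.16 in Control to 11.57, 11.47, 11.27 and 11.66 in Dex (limma adjusted p = 0.000153). Within the shared slide the 5 genes differed by 0.68, 1.37, 1.5, 4.65 and 4.41 in the order Ptpn22, Sesn1, Wdr62, Mlana and Itgae.

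**Figure D5:**
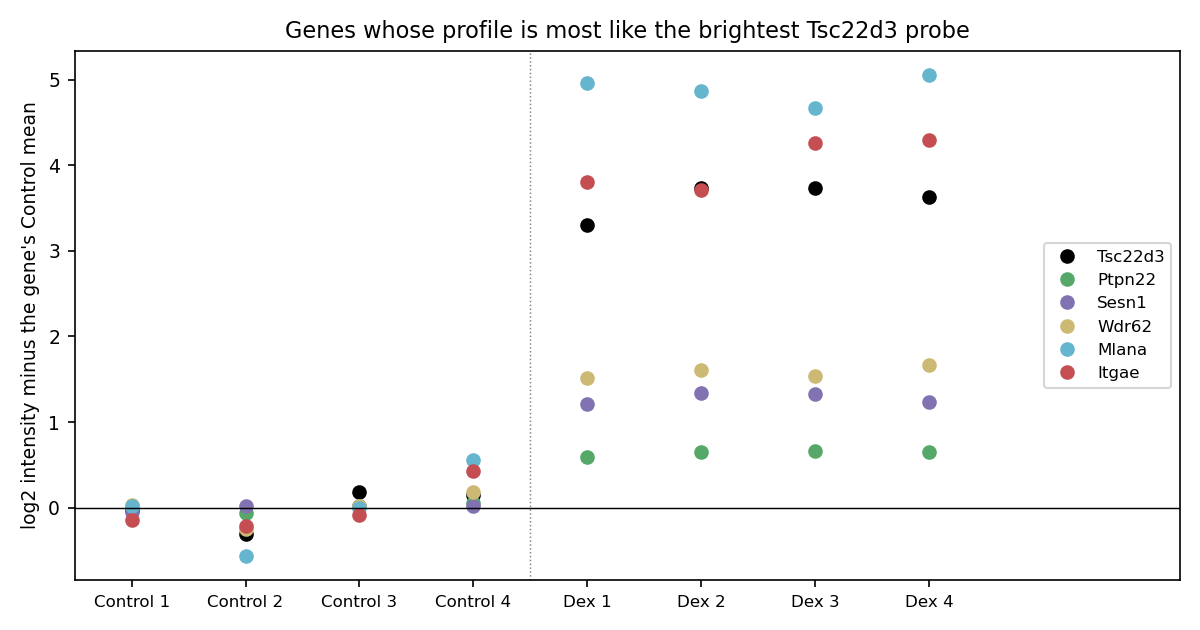
Log2 intensity minus the gene's own Control mean (vertical axis) on each array (horizontal axis) for the brightest Tsc22d3 probe and the 5 genes with the highest Pearson r to it. All 6 step up between the Control and the Dex arrays, with log2 fold changes from 0.64 for Ptpn22 to 4.89 for Mlana.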

How the data were processed

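The authors labeled total RNA with Cy3, hybridized it to Agilent Whole Rat Genome arrays and read the spots with Feature Extraction version 9.5.3.1. The deposited scanner output holds background-subtracted intensities that are not normalized between arrays, with flags scored 0 or 1 for spots above background, saturated or outlying. The authors also deposited log2 values, quantile normalized and median polished, which were used as an alternative. The scanner header places probes on build rn3.

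Here control spots and outlier spots were left out (16 missing values among 41012 probes), and intensities were log2 transformed, quantile normalized and median polished. limma (version 3.58.1, R version 4.3.3) was fitted over all probes without a block, with Benjamini-Hochberg adjustment and a threshold of 0.05. The replicate labels do not say whether samples came from separate animals or preparations, so that p-values measure the spread between these samples, which may be technical. The procedure was tested on simulated data. The number of arrays limits the precision, and probes near background are the least certain. No value column was left without a sample.

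Old array names were replaced through RefSeq by accession, gene ID or synonym. The brightest probe stood for a gene. By rule, the genes named were the members, listed genes that passed limma, Nr3c1, Foxo3 and the 5 genes most correlated with Tsc22d3. Marker genes, neighboring tags and listed genes that did not pass were added outside this rule, with their values known. The values of 1 gene of the GILZ partner list are not reported here. The members and lists were chosen with earlier results of these data known.

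Deviations from the group means correlated between arrays of the same replicate number at 0.397, 0.129, 0.550 and 0.184. All exceeded 0.1, so the numbers may mark pairs, and a fit with the number as a block is given as an alternative to the unblocked tests where it changes a call. However, Control 1 with Dex 2 (0.401) and Control 3 with Dex 4 (0.392) also correlated.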

Additional observations from a re-analysis of the deposited data

Results flagged for a closer look

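A single array stood apart from the rest of its group in 2 of 50 groups of 4 arrays that were examined, measured by its gap to the nearest other array over the whole range of the group, and chance gives about 1 in 20. On the Tsc22d2 probe A_44_P221650, Dex 4 read 9.72 against 9.85 to 9.87 on the other Dex arrays, a gap of 0.880 of the range. On the Sesn1 probe A_43_P17837, Control 1 read 11.20 against 11.27 to 11.28, a gap of 0.864 of the range. Both gaps are smaller than the median SD of all probes in that group.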

How the results depend on the processing

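Tsc22d3 kept its direction under all settings, with log2 fold changes of 3.53 to 3.75 on A_42_P822638 and 2.68 to 3.66 on A_44_P346807, and 3.49 to 3.69 and 3.48 to 3.60 when each array was left out in turn (limma adjusted p = 0.000863 to 0.00201). It did not pass with slide as a fixed block (3.75 and 3.58, adjusted p = 0.124 and 0.108), when none of the 8 probes, no GILZ partner and no glucocorticoid target passed (0 of each). With the replicate block Tsc22d3 passed (adjusted p = 0.0141 and 0.0140), 0 GILZ partners and 4 glucocorticoid targets passed, and 81 probes passed in place of 319. No call of a family probe changed under the block. In the test by sign flips within pairs, added after seeing the data, no pair of genes passed (adjusted p = 0.15 to 0.5), which with 4 pairs no difference can.

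The sign turned for Tsc22d1 A_44_P365516 with slide as a fixed block (-0.49), and without Dex 1 or Dex 2 (-0.02 each, in a range of -0.02 to 0.44), for Tsc22d2 A_44_P221650 (0.16) and Foxo3 (-0.09) with slide as a fixed block, and for Tsc22d2 A_44_P361091 with normexp (0.00, just above 0). Without the 3 arrays with fewest probes above background, chosen after seeing the data, it turned for both Tsc22d1 probes (-0.01 and -0.45) and Foxo3 (-0.09). The signal to noise statistic called Tsc22d4 A_44_P189646 (-0.29).

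The Tsc22d3 differences from Tsc22d1, Tsc22d2 and Tsc22d4 had an adjusted p under 0.05 after scaling to the 75th percentile (3.23, 3.75 and -3.90, exact permutation adjusted p = 0.0343), with normexp (3.28, 3.71 and -3.83, adjusted p = 0.0429) and without Dex 4, in tests that ignore the replicate pairs. Their unadjusted p was already the smallest possible, and the adjusted p was lower there because more of the 6 pairs reached that smallest p. These were Tsc22d4 minus Tsc22d1 (-0.67, -0.55, and -0.80 without Dex 4) and, after scaling to the 75th percentile, Tsc22d2 minus Tsc22d1 (-0.52). They too had an adjusted p under 0.05 in those settings (exact permutation adjusted p = 0.0343 after scaling, 0.0429 with normexp and 0.0429 without Dex 4). Leaving out each array gave 3.08 to 3.47, 3.69 to 3.87 and -4.01 to -3.79 for the Tsc22d3 differences and -0.80 to -0.48 for Tsc22d4 minus Tsc22d1. It gave -0.26 to -0.03 for Tsc22d2 A_44_P221650 and -0.41 to -0.03 for Tsc22d2 A_44_P361091.

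GILZ partner genes passing numbered 0 after scaling to the 75th percentile, 2 with normexp, 2 without dim probes, 4 with slide as a random block, 5 without the 3 arrays, 6 by the signal to noise statistic and 0 to 0 when each array was left out. NRBP and WNK genes numbered 2, 1, 2, 5 and 4 with normexp, without dim probes, with the random block, without the 3 arrays and by signal to noise. Glucocorticoid targets numbered 3 after scaling to the 75th percentile. Probes passing in all numbered 166 after that scaling, 915 with normexp, 562 of 28476 without dim probes, 1838 with the random block (its correlation was -0.235, below 0), 4671 without the 3 arrays, 1 with slide as a fixed block, and 96 to 249 with 1 array left out. The cause was not tested.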
